A study of Mus musculus with 2 samples.

Results

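The loci of 10 genes that govern exit from the cell cycle were described in chromatin of mouse gastrocnemius muscle: the inhibitors Cdkn1a, Cdkn1b and Cdkn2c, the pocket proteins Rb1, Rbl1 and Rbl2, the D cyclins Ccnd1, Ccnd2 and Ccnd3, and the transcription factor E2f1. They were chosen by name, with earlier results of these data known, and they are 10 of 21911 protein-coding genes of the GENCODE annotation. DNase-seq marks DNA that the enzyme DNase I can cut in nuclei, which is open chromatin, and does not measure transcription. Both libraries were made from the gastrocnemius, a calf muscle, of male B6CASTF1/J mice 14 days old, which are hybrids of the C57BL/6J and CAST/EiJ strains. They form 1 group with 2 biological replicates, so that the data hold no treated or mutant group and no contrast. The labels of both libraries carry the note 3x Males without saying whether tissue was pooled, and both point to the same donor entry, so the spread between replicates may be partly technical.

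In developing muscle, myoblasts must leave the cell cycle for good before they fuse into fibres, while satellite cells keep the ability to divide. Kinases of the D cyclins inactivate the pocket proteins by phosphorylation, and free E2F factors then switch on genes of DNA replication. The inhibitors block these kinases, so that the pocket proteins stay on E2F sites and the genes remain silent.

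The libraries differed in scale. Each library has 2 deposited peak lists, and the shorter, called strict here, had 82498 peaks in replicate 1 and 88198 in replicate 2. Peak signal is the authors' own value in units whose scaling is not stated, and in the 63851 regions that both lists shared replicate 1 stood at a median of 1.55 times replicate 2. Signals are therefore compared as percentiles within a library, or as a log2 ratio of replicate 1 to replicate 2 with that median subtracted. All 10 skeletal muscle markers had a promoter peak in both libraries, among them Ckm at 12.1 in replicate 1 and 3.36 in replicate 2. Of the other cell types, 5 of 5 fibroblast markers and 5 of 5 pericyte and smooth muscle markers were open, against 3 of 5 for endothelium, 3 of 5 for Schwann cells, 2 of 5 for satellite cells and 1 of 5 for macrophages and leukocytes. The summed promoter signal of the muscle list was 66.8 in replicate 1 and 24.1 in replicate 2, and that of the fibroblast list was 16.7 in replicate 1 and 11.4 in replicate 2. The sums of the other lists ran from 1.22 to 19.1 in replicate 1 and from 0.762 to 11.7 in replicate 2. The muscle list has 10 genes and every other list 5, so the muscle sum is not like for like with the others. No promoter peak was found in either library at Ptprc, Csf1r and Adgre1 of the leukocyte list or at Sox10 of the Schwann cell list. In nuclei from bulk tissue, a region open in few cells and a region weakly open in many cannot be told apart, and the part of each cell type in the results below was not tested.

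All 10 genes were open, which means that a peak lay within 1000 bases of an annotated start in both libraries. Over all protein-coding genes the share was 61.7%. The median percentile of the strongest promoter peak was 71.0 for the 10 genes, against 50.1 for all coding genes and 69.4 for those that were open. E2f1 stood highest, at the 84.8th ± 10.1 percentile, and Ccnd1 lowest, at the 48.5th ± 0.0742 (SD, n = 2 libraries). Ordered by their mean, the values of neighbouring genes did not overlap between libraries at 3 places, between Cdkn1b and Cdkn1a, between Cdkn1a and Rb1, and between Rbl1 and Ccnd2. At the other 6 places they overlapped. The step from Rbl1 to Ccnd2 was 14.5 percentile points wide, and it left Ccnd2 and Ccnd1 apart from the other 8 genes.

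**Figure D1:**
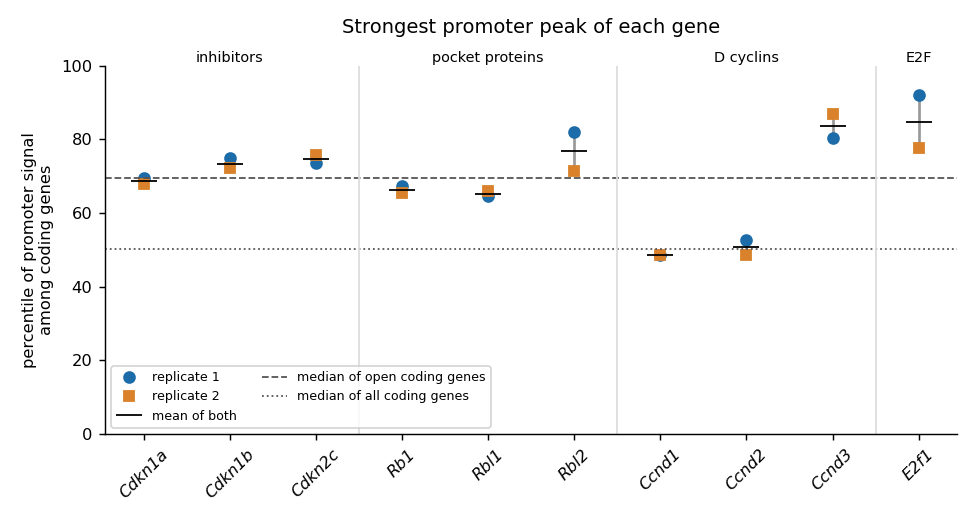
Percentile of the strongest promoter peak of each gene among 21911 coding genes (vertical axis, 0 to 100) in replicate 1 (circles) and replicate 2 (squares), with the mean of both (bar) and the medians of open and of all coding genes (lines). Ccnd1 and Ccnd2 lie near the median of all coding genes, at 48.5 and 50.7, and the other 8 genes lie between 65.2 and 84.8.

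Sequences are printed 5′ to 3′ on the strand of the gene, from the C57BL/6J reference (mm10, the same assembly as GRCm38), so the CAST/EiJ allele of the hybrids is not shown. Bases in capitals lay inside a DNase footprint of both libraries, unless stated otherwise. A footprint is a short stretch within an open region that the enzyme cut less than its surroundings, as a bound protein would leave it. The stretches shown first are the start of Cdkn1a that was open, the start of the same gene that was not, and the strongest region inside the gene. The first of them is the RefSeq promoter window at chr17:29093519-29093818 (+), from 250 bases before to 50 bases after the start. The second, at chr17:29090886-29090957 (+), carries no footprint, and its capitals mark instead a match to the p53 response element. The third is the intronic region chr17:29095441-29095700 (+).
Cdkn1a, open start: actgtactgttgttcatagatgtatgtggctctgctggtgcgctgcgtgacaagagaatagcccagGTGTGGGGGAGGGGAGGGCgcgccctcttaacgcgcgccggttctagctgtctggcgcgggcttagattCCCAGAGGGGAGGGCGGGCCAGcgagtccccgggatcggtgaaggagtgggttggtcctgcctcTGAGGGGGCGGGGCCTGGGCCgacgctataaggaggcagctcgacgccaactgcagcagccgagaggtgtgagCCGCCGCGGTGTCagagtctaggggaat
Cdkn1a, first start, p53 element: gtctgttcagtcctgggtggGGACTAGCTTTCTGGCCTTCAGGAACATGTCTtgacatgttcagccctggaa
Cdkn1a, intron: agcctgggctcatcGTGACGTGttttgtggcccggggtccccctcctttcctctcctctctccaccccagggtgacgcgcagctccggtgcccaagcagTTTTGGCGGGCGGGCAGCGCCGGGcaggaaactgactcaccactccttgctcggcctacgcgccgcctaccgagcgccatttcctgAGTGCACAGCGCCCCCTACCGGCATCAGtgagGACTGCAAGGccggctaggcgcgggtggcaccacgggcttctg

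Cdkn1a encodes p21, the inhibitor that p53 induces after DNA damage and that MyoD induces in differentiating muscle cells. Its strongest promoter peak had a signal of 6.21 in replicate 1 and 3.35 in replicate 2, a percentile of 68.6 ± 1.10 (SD, n = 2). This peak lay at the starts of transcripts Cdkn1a-201 and Cdkn1a-205, with its centre 0.038 kb before the nearest of them. The annotation gives 2 further starts, and neither was open in both libraries. The first start, 2.79 kb upstream at position 29090979 of chromosome 17, had no peak and no base with a false discovery rate (FDR) under 0.05 within 1000 bases in either library. The start of Cdkn1a-203 had a peak of 1.52 in replicate 1 and none in replicate 2.

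The window of that closed first start held the match to the p53 response element printed above. It ran from 73 to 42 bases before the start that RefSeq gives, from which motif positions in these windows are counted. Such a match stood in 24 of 32851 RefSeq promoter windows, or 0.0731%, and in no other window of these genes. The match allows up to 13 bases between its parts and here had 12. Its capitals therefore need not mark the bases that p53 would bind, and the share refers to this pattern of letters. The CpG ratio, which is the observed over the expected frequency of CG pairs, was 0.0892 in the closed window and 0.786 in the open one, at percentiles of 11.8 and 77.9 of all windows. The open window carried the GC box GGGCGG, the letters that SP family factors bind, at 104 and at 46 bases before the start, both touching footprints of both libraries. The element CAGCTG, the E-box bound by MyoD, was found in the closed window, 37 to 42 bases after the start, and not in the open one.

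The strongest open region within the Cdkn1a gene was not at a start of the gene but in an intron, 1.79 kb downstream of the open start. Its signal was 11.4 in replicate 1 and 6.63 in replicate 2, at the 96.6th and 97.7th percentile of all peaks, and it held 4 footprints in replicate 1 and 5 in replicate 2. In both libraries this was more than the promoter peak of Cdkn1a itself. A GC box in it touched a footprint of both libraries, and an AP-1 consensus did not. It lay within 1000 bases of a start of AC167363.2, a noncoding gene, and was therefore not counted as distal. With a promoter window of 2500 bases it became the strongest promoter peak, and Cdkn1a moved to the 88.7th percentile.

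The remaining regions around Cdkn1a were mostly at noncoding starts. Trp53cor1, the lincRNA-p21 gene, had a promoter peak 11.9 kb upstream of the first Cdkn1a start, with 5.90 in replicate 1 and 1.51 in replicate 2. With the intronic region, 6 shared regions within 50 kb lay at noncoding starts only, and 2 were distal, meaning that they lay more than 1000 bases from every annotated start. With either library alone 5 were distal. The distal region with the higher mean percentile was intergenic, 41.7 kb upstream, with 2.71 in replicate 1 and 3.58 in replicate 2. Its mean percentile among the 41807 shared distal regions was 90.3 ± 7.06 (SD, n = 2), and the nearest coding start was that of Srsf3.

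Cdkn1b encodes p27, the inhibitor that holds resting cells out of the cycle. Its promoter peak had 7.49 in replicate 1 and 3.84 in replicate 2, a percentile of 73.4 ± 1.89, and the lowest FDR of a base reached 7.34e-94 in replicate 1 and 5.01e-50 in replicate 2. The open stretch continued downstream with 2 weaker shared regions, one 0.158 kb after the nearest start with 3.73 in replicate 1 and 2.05 in replicate 2, the other 0.598 kb after it with 1.49 and 0.83. The promoter peaks together held 10 footprints in replicate 1 and 15 in replicate 2, against medians of 5 and 6 for open coding genes. Per 100 bases of peak this was 1.32 in replicate 1 and 1.67 in replicate 2, against medians of 1.56 and 1.67. The noncoding gene Lockd, whose promoter region is known in mouse erythroid cells as an enhancer of Cdkn1b, was open 8.08 kb downstream with 5.29 in replicate 1 and 2.13 in replicate 2. Of 3 distal regions, that with the highest mean percentile, 66.2 ± 28.4 (SD, n = 2), lay 27.1 kb downstream, in an intron of Lockd, with 1.19 in replicate 1 and 2.33 in replicate 2. In replicate 1 it was the weakest of the 3, and the region 3.10 kb upstream had nearly the same mean, 65.7 ± 8.58.

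Cdkn2c encodes p18, an INK4 inhibitor of the kinases that pair with D cyclins. Both of its annotated starts were open. The strongest peak, centred 0.338 kb after the upstream start, had 7.20 in replicate 1 and 4.30 in replicate 2, a percentile of 74.7 ± 1.64. The peak at the start 1.82 kb further on had 2.39 in replicate 1 and 1.44 in replicate 2, so that the upstream peak was the higher in both libraries. No shared distal region lay within 50 kb, and the nearest strong region was the promoter of Faf1, 9.40 kb upstream, at 14.6 in replicate 1 and 5.56 in replicate 2. The upstream peak held 6 footprints in each library, and its RefSeq window had 4 GC boxes, every one of which touched a footprint of both libraries.

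**Figure D2:**
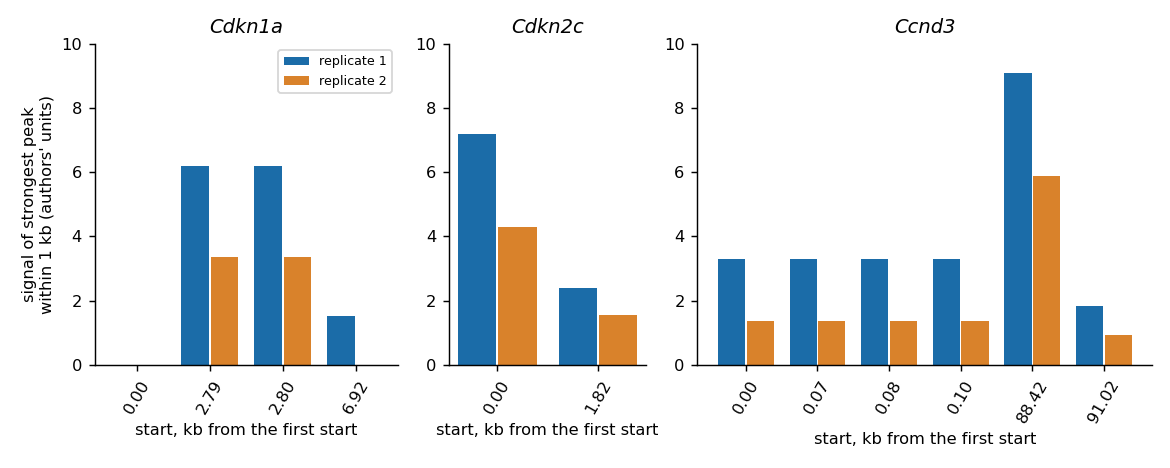
Signal of the strongest peak within 1 kb of each annotated start (bars, vertical axis in the authors' units) of Cdkn1a, Cdkn2c and Ccnd3, in replicate 1 and replicate 2, with starts ordered by their distance from the first start of the gene in kb. The first start of Cdkn1a has no peak, and the start of Ccnd3 at 88.4 kb exceeds its first start, at 9.10 in replicate 1 against 3.29.

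Among the pocket proteins, Rb1 encodes the retinoblastoma protein. Its promoter had 5.72 in replicate 1 and 3.06 in replicate 2, a percentile of 66.3 ± 1.32, in an open block centred 0.129 kb upstream of the start. Replicate 1 had 4 promoter peaks, of which 2 lay in this block, and replicate 2 had 1. No other region with a peak in both libraries lay within 50 kb of the Rb1 start. A distal peak of a single library lay there in 3 places, with a signal of at most 0.909 in replicate 1 and 1.14 in replicate 2, and all 3 had a peak of the permissive list in the other library.

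Rbl1 encodes p107, a pocket protein whose gene is itself repressed through E2F sites in resting cells. Its promoter had 5.10 in replicate 1 and 3.14 in replicate 2, a percentile of 65.2 ± 1.09. Of the RefSeq windows of these genes, that of Rbl1 alone held a match to the E2F consensus, which occurred in 2.26% of all windows. The match lay 18 to 11 bases before the start and touched a footprint of both libraries. The Rbl1 window, chr2:157204485-157204784 (-), is shown for this site. Its 1 distal region, 2.78 kb into the gene, was weak, with 0.797 in replicate 1 and 0.298 in replicate 2.
Rbl1, start: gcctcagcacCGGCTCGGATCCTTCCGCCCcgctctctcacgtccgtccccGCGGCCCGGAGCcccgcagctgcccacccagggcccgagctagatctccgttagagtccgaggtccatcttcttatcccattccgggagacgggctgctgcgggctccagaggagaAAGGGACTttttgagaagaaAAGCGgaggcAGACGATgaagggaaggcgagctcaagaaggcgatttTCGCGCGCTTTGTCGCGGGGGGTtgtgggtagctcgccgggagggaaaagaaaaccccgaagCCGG

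Rbl2 encodes p130, the pocket protein of resting cells and a subunit of the repressor complex DREAM. Its promoter had 9.60 in replicate 1 and 3.77 in replicate 2, a percentile of 76.8 ± 7.49, and a second region 0.523 kb downstream had 3.93 in replicate 1 and 2.72 in replicate 2. Footprints were dense, with 2.22 per 100 bases of promoter peak in replicate 1 and 2.62 in replicate 2, against medians of 1.56 and 1.67 for open coding genes. Both of its distal regions lay in the neighbouring gene Chd9, 18.8 kb and 50.1 kb upstream, and both had a higher signal in replicate 2, with 1.38 in replicate 1 and 1.75 in replicate 2 at the nearer. The element TTTGAA, which DREAM binds in cell cycle genes, stood once in the Rbl2 window and touched no footprint of both libraries there, and it occurred in 17.9% of all windows.

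Among the D cyclins, Ccnd3 stood apart from Ccnd1 and Ccnd2 at its strongest promoter peak. Ccnd1, the cyclin most tied to growth signals, had 2.00 in replicate 1 and 1.19 in replicate 2, and Ccnd2 had 2.74 in replicate 1 and 1.20 in replicate 2. Both lay near the middle of all coding genes, at percentiles of 48.5 ± 0.0742 and 50.7 ± 3.01. Ccnd3, the D cyclin that accumulates in differentiating muscle cells, had 9.10 in replicate 1 and 5.88 in replicate 2, a percentile of 83.6 ± 4.62. In both libraries the percentile of Ccnd3 lay above those of Ccnd1 and Ccnd2. This value is the strongest over 6 starts with windows of 6101 bases in all, against 2001 for Ccnd1 and 2054 for Ccnd2. At its first starts Ccnd3 had 3.29 in replicate 1 and 1.36 in replicate 2, close to Ccnd2.

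The strongest promoter peak of Ccnd3 was not at its first starts. The cluster of 4 starts from position 47505051 to 47505149 of chromosome 17 had 3.29 in replicate 1 and 1.36 in replicate 2. The start of Ccnd3-205, 88.4 kb downstream, had the 9.10 and 5.88 given above. A further start, of Ccnd3-208, had 1.84 in replicate 1 and 0.913 in replicate 2. Of 22 promoter footprints in replicate 1 and 11 in replicate 2, 5 and 4 were found in the other library. Per 100 bases of peak Ccnd3 had 1.56 in replicate 1 and 0.619 in replicate 2. Overlapping promoter peaks of Ccnd3 in replicate 2 were each counted at full width, which lowers the value of that library. The RefSeq window at Ccnd3-205, chr17:47593217-47593516 (+), is shown because footprints of both libraries touched a CCAAT box, which NF-Y binds, and 2 GC boxes in it.
Ccnd3, start of Ccnd3-205: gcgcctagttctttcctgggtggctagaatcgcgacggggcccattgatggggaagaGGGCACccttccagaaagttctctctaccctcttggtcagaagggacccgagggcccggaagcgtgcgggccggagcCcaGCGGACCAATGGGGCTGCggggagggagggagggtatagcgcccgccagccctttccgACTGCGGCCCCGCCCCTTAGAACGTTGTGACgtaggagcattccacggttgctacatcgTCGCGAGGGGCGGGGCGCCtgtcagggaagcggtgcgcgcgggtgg

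Ccnd3 also had the most distal regions of the 10 genes, with 13 of the 32 in all. Over all coding genes, 0.831% had 13 or more, and the median was 2. The window around the starts of Ccnd3 spans 191 kb, against a median of 100 kb for all genes, and per 100 kb Ccnd3 had 6.81 regions, the 91.9th percentile. Of the 13, 9 lay in introns of Ccnd3, and the 2 strongest of these were 6.15 kb and 3.00 kb downstream of the nearest start. The first had 11.4 in replicate 1 and 7.68 in replicate 2, at the 99.7th ± 0.0693 percentile of shared distal regions. The second had 7.87 in replicate 1 and 4.00 in replicate 2, at the 97.8th ± 1.61. Both exceeded the peak at the first starts in both libraries. Another strong region, with 10.2 in replicate 1 and 5.19 in replicate 2, lay 33.5 kb downstream of the last start and 1149 bases from a start of Usp49, just outside the promoter window of that gene.

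The intronic region at 6.15 kb, chr17:47511161-47511440 (+), is shown as the strongest distal region of the 10 genes, with 6 footprints in each library. Its footprints shared by both libraries covered a match to the consensus of CTCF, a zinc finger protein that marks boundaries and loops in chromatin, with 1 mismatch. An AP-1 consensus and 2 CCAAT boxes in it lay outside the shared footprints.
Ccnd3, intron at 6.15 kb: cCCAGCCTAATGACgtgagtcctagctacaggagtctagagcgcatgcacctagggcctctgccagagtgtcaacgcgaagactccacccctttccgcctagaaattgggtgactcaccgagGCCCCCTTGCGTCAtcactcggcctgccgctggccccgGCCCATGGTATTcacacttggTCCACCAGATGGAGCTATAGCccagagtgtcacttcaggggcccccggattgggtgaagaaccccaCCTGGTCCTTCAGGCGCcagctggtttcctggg

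**Figure D3:**
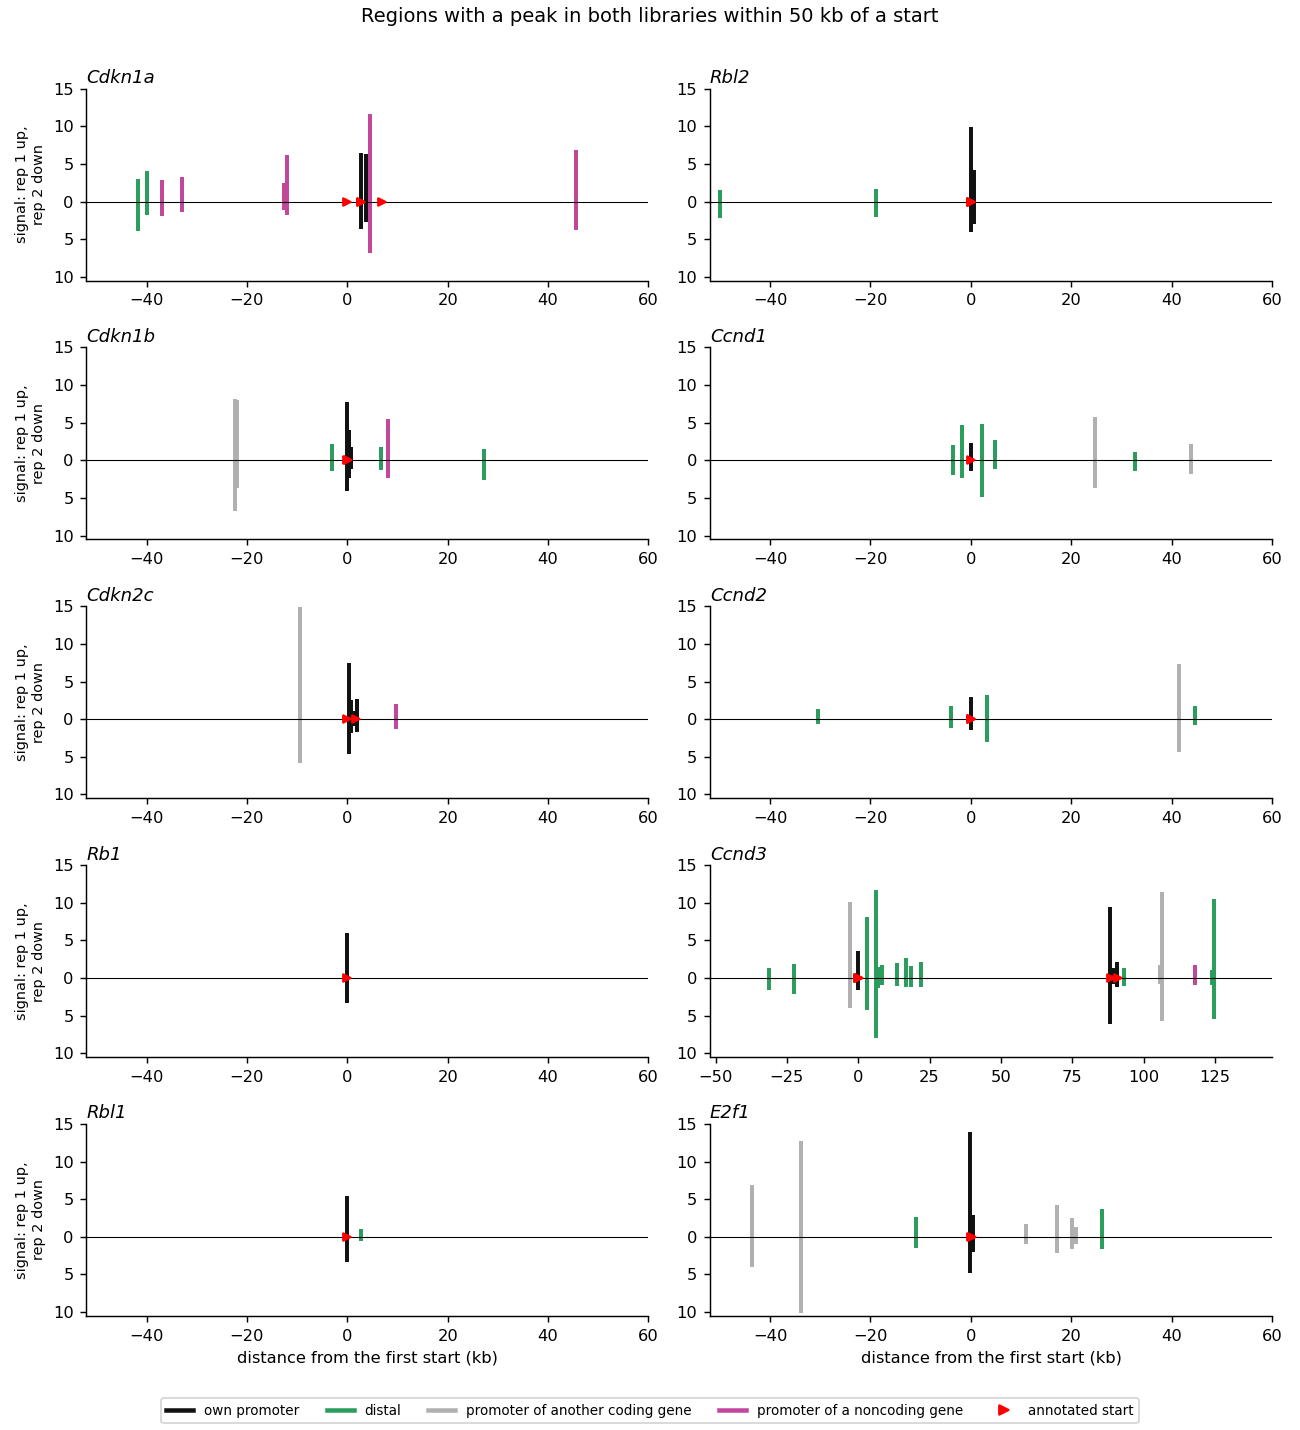
Regions with a peak in both libraries within 50 kb of a start of each gene, by distance from the first start in kb (horizontal axis), with the peak signal of replicate 1 drawn upward and of replicate 2 downward in the authors' units, coloured by what the region is. Ccnd3 holds 13 distal regions, Ccnd1 has a distal region of 4.61 in replicate 1 next to a promoter of 2.00, and Rb1 has none besides its promoter.

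Ccnd1 had 5 distal regions and Ccnd2 had 4, and at both genes the strongest of them exceeded the promoter. In Ccnd1 an intronic region 2.22 kb downstream had 4.61 in replicate 1 and 4.59 in replicate 2, at the 96.8th ± 1.62 percentile of distal regions. A region 1.83 kb upstream of Ccnd1 had 4.47 in replicate 1 and 2.11 in replicate 2, at the 89.4th ± 8.38. With a promoter window of 2500 bases both entered the promoter, and Ccnd1 moved to the 69.2nd percentile. In Ccnd2 an intronic region 3.13 kb downstream had 2.98 in replicate 1 and 2.82 in replicate 2, at the 89.5th ± 2.05, against a promoter of 2.74 and 1.20. Promoter footprints were few in replicate 1, with 2 in Ccnd1 and 3 in Ccnd2, and more in replicate 2, with 6 and 8.

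E2f1 encodes the transcription factor that drives entry into DNA replication and that the pocket proteins restrain. Its promoter was the strongest of the 10 genes in replicate 1, at 13.6, and stood at 4.53 in replicate 2. The percentiles were 91.9 and 77.6, the widest spread among these genes. The strongest region lay just upstream of the first start, with its centre 0.129 kb before it. Just after that start a footprint of both libraries touched 2 matches to the E2F consensus, 1 at each of its ends. In replicate 1 this footprint ran across the edge of the peak, at position 154569881. In replicate 2 it lay outside the promoter peaks, since the edge of the nearer peak was at position 154569961. They start at bases 273 and 286 of the stretch chr2:154569865-154570160 (-) printed here, which runs from the peak across the first start. The RefSeq window of E2f1, chr2:154569377-154569676 (-), is another stretch, further downstream, and held no such match. Over all RefSeq windows, 0.0974% held 2 or more. That share is for windows placed at RefSeq starts, and a share for stretches placed by a peak, as here, was not computed. The stretch further holds 6 GC boxes, of which 3 touched shared footprints, and 3 CCAAT boxes, none of which did.
E2f1, across the first start: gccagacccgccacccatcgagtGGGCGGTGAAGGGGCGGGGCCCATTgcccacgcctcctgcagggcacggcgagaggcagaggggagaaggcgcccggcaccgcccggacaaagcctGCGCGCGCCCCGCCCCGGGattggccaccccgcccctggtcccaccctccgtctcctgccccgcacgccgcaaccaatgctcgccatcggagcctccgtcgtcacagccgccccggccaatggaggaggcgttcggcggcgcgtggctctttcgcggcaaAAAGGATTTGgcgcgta

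E2f1 had 2 distal regions, against 5 in replicate 2 alone and 7 with the permissive list. That with the higher mean percentile, 26.0 kb downstream, had 3.41 in replicate 1 and 1.32 in replicate 2, at 78.9 ± 17.2. Its surroundings were dense with promoters of other coding genes, with 6 such regions. The strongest was that of Pxmp4, 33.8 kb upstream, at 12.4 in replicate 1 and 9.89 in replicate 2.

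In the 10 genes together, 28 promoter peaks in each library held 89 footprints in replicate 1 and 92 in replicate 2. A footprint of the other library overlapped 62.9% of those in replicate 1 and 58.7% of those in replicate 2, against 55.9% and 46.0% of all footprints in the genome. The 32 distal regions held 121 footprints in replicate 1 and 120 in replicate 2, of which 67.8% and 60.8% were found in the other library. The genome values cover every footprint, inside peaks or not. Those of the 10 genes lie in promoter peaks or in distal regions with a peak in both libraries. The shares are therefore not like for like, and no trait of these genes can be read from them. The median promoter footprint was 11 bases long in both libraries, against 10 over the genome.

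**Figure D4:**
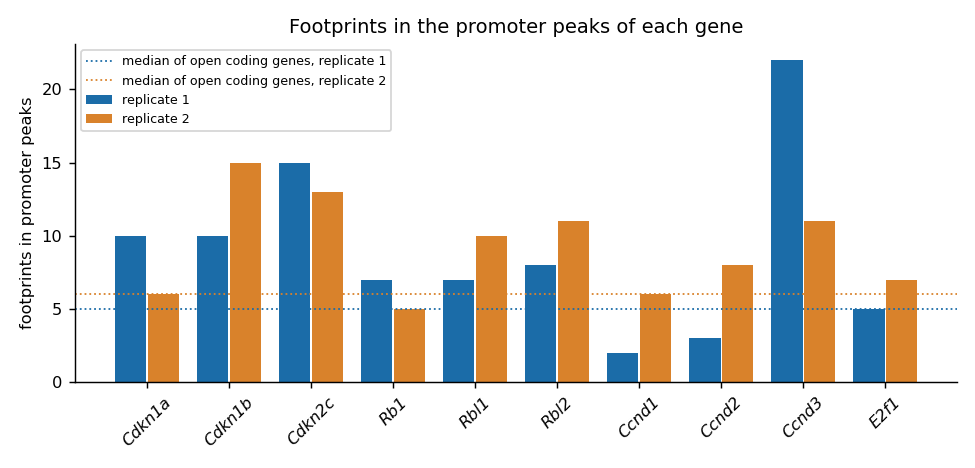
Number of footprints in the promoter peaks of each gene (bars) in replicate 1 and replicate 2, with the median of open coding genes in each library (dotted lines, 5 and 6). Ccnd3 has the most in replicate 1, with 22, and Cdkn1b the most in replicate 2, with 15.

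Of the 10 genes, 8 had at least 1 distal region, against 72.0% of all coding genes, and 3 had a distal region at or above the 90th mean percentile, against 20%. These were Ccnd3, Ccnd1 and Cdkn1a. Of the 32 distal regions, 20 lay in introns, 10 between genes and 2 in exons, and for 23 of them the nearest coding start was that of the gene they were counted for. The GC box GGGCGG stood in 8 of 10 RefSeq promoter windows of these genes, against 35.7% of all windows. Apart from the closed Cdkn1a window, the CpG ratio of these windows ran from 0.553 to 1.08, against a median of 0.384 for all windows. A share for windows of like composition was not computed, so the GC box cannot be called a trait of these genes. The MyoD E-box CAGCTG was found in the central 200 bases of 8 distal regions of the 32, against 28.0% of all shared distal regions. It touched a footprint of both libraries in 0 of these 8, against 2890 of the 11699 shared distal regions that held it. RefSeq promoter windows were found for 7 of the 10 genes, and those of Rb1, Ccnd1 and Ccnd2 are named only.

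The distal regions of these genes split by which library they were stronger in, once the median ratio had been subtracted. The CTCF consensus was added after their footprint sequences had been seen, and the comparison is a description with no test. With up to 1 mismatch it stood in 9 of the 32 regions, against 22.0% of all shared distal regions. The log2 ratio of replicate 1 to replicate 2 was below the median ratio in all 9, from -1.59 to -0.0581, against 93.1% of all regions with the consensus. In the other 23 regions it ran from -1.03 to 1.10, and 8 were below, against 47.3% of all regions without it. The lowest values among the 9 were -1.59 at 27.1 kb downstream of Cdkn1b, -1.31 at 50.1 kb upstream of Rbl2 and -1.07 at 31.3 kb upstream of Ccnd3. Shown are the regions chr6:134947481-134947680 (+), chr8:91019881-91020080 (+) and chr17:47473701-47473880 (+) with these 3 values, and the consensus lies wholly inside their capitals.
Cdkn1b, 27.1 kb downstream: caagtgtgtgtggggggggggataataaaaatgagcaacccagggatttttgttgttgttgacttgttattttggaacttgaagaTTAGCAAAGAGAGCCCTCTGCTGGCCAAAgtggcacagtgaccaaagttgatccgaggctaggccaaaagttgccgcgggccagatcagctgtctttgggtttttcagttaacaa
Rbl2, 50.1 kb upstream: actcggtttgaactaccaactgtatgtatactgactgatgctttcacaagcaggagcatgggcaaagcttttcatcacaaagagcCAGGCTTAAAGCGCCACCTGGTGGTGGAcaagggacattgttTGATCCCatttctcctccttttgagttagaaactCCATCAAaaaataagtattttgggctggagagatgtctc
Ccnd3, 31.3 kb upstream: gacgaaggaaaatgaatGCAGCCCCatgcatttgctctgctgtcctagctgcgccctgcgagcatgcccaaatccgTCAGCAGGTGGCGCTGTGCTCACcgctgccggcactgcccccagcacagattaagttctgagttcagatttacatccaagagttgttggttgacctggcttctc

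**Figure D5:**
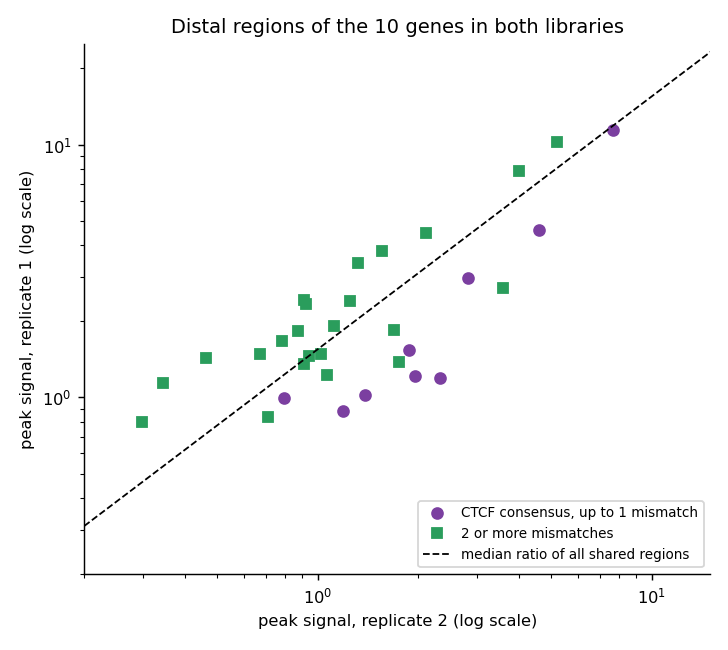
Peak signal of the 32 distal regions in replicate 2 (horizontal axis) and replicate 1 (vertical axis), both in the authors' units on log scales, with the median ratio of all shared regions as a dashed line. All 9 regions with a CTCF consensus at up to 1 mismatch lie below the line, which marks a ratio of 1.55.

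The other genes of the pathway were open too. Of 48 genes in 7 lists, all 48 had a promoter peak in both libraries, against 61.7% of all coding genes. The median percentile was 71.0 for the 10 genes and 78.6 for these 48. It was 69.4 for open coding genes and 50.1 for all coding genes. Among 4 other inhibitors, Cdkn2d (p19) stood highest at the 98.8th percentile and Cdkn2a lowest at the 47.1st. Among 9 E2F and DP factors the range ran from E2f2 at 53.2 to E2f3 at 95.3, and among 4 kinases from Cdk6 at 56.7 to Cdk4, a partner of the D cyclins, at 94.6. Among 5 cyclins of S and M phase, Ccne2 had 53.6 and Ccne1 98.1. The 6 DREAM subunits lay between Lin54 at 65.5 and Rbbp4 at 90.4. The 15 genes of replication and mitosis, which are used in dividing cells, lay between Plk1 at 53.9 and Mcm5 at 95.5. The 5 genes of upstream control and degradation lay between Cks1b at 81.6 and Fbxw7, which marks cyclin E for destruction, at 97.4.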

How the data were processed

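The deposited files of 2 DNase-seq libraries of 1 group, on mm10, were used as they stood. Peak signal is the authors' value per peak, called on each library alone per the deposited notes, and no source used here gives its scaling. The FDR per base, a corrected p-value or q-value, and the footprint threshold of 0.01 are the authors' values, as deposited. The FDR track lists bases under 0.05. No source used here names the aligner, the peak or footprint caller or the read depth. The strict peak list (fewer rows) was used, with the permissive list as an alternative.

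Genes came from GENCODE M21 (basic set). A promoter was 1000 bases on either side of any start of a gene, and its value was the strongest overlapping peak. Genes with no peak shared the 18.3rd percentile. Peaks of the libraries that overlapped by 1 base were merged, and a merged region was distal if it lay more than 1000 bases from every annotated start, noncoding ones included. It was counted for a gene if its nearest edge lay within 50 kb of a start. With 2 libraries and no contrast, no test was made: the 10 genes are set beside all coding genes.

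Sequences came from RefSeq's promoter windows (GRCm38) and from that genome, with which 658 of 658 checked windows were identical. Motifs were searched on both strands, and their matches may overlap. They were the GC box GGGCGG, the NF-Y box CCAAT, the DREAM element TTTGAA, the MyoD E-box CAGCTG, the cAMP response element TGACGTCA, the FOXO site TGTTTAC, the TEAD site GGAATG, and by name E2F, AP-1, p53 and MEF2. The CTCF consensus was added after the data were seen. The 10 genes, the pathway and marker lists, the windows and the motifs were chosen with earlier results of these data known. Named were all 10 genes, the distal region of each with the highest mean percentile and those above the 90th, the highest and lowest gene of each pathway list, and genes whose promoter region lay within 50 kb of the 10. Counting was tested on simulated peaks with known positions. Python 3.11.15, pandas 2.3.3, NumPy 2.4.6, pysam 0.24.0 and bedtools 2.31.1 were used.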

Additional observations from a re-analysis of the deposited data

How the results depend on the processing

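All 10 genes and all 48 pathway genes had a promoter peak in both libraries under the permissive list, promoter windows of 250 and 2500 bases, and peaks at or above the median signal, and in the library used where 1 was left out. No gene could be lost with the window of 2500 bases or with 1 library left out, and the permissive list holds more peaks. The counts could therefore fall mainly with the window of 250 bases and the median signal. The share of all coding genes that were open was not computed under these settings, so the counts have no background there. The median percentile of 71.0 moved to 72.5 with the window of 250 bases and 73.2 with that of 2500, and lay between 69.7 and 71.4 with 1 library left out. Ccnd3 stood highest in place of E2f1 without replicate 1, as did Cdkn1a, at 88.7 against 84.2 for E2f1, with the window of 2500 bases. Ccnd2 and Ccnd1 were the 2 lowest in all settings but the window of 2500 bases, where Rbl1 and Ccnd2 were. The 32 distal regions became 62 with the permissive list, 20 with peaks at or above the median signal, 19 within 20 kb and 62 within 100 kb. They numbered from 45 to 53 with 1 library left out, and 53 was reached without replicate 1, where Ccnd1 had 11 in place of 5, Ccnd2 7 in place of 4, and Cdkn1a 5 and E2f1 5 in place of 2 each. Without replicate 2, Cdkn1a had 5, Cdkn1b 6 in place of 3, and Rbl2 1 in place of 2. Rb1, with 0, had 1 without replicate 1 and 2 without replicate 2, and Cdkn2c, with 0, had 1 without replicate 1. With promoter windows of coding starts only, an alternative added after the data were seen, there were 41, of which Cdkn1a had 8 in place of 2. The causes were not tested. The count of promoter footprints, 90.5 as a mean of the libraries, stayed between 71.5 and 112. Of 265 values under alternatives, 200 stayed within 1.5 times the count or the SD between libraries. Some of these outcomes were fixed in advance, so the tally does not measure stability. With 1 library left out, the percentile of a gene cannot move from the mean of both by as much as their SD. No paired analysis was possible because the libraries form 1 group. With 2 libraries and unknown read depth, weak regions of Rb1 and Cdkn2c cannot be called absent.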

Other observations

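Of all 41807 shared distal regions, 9195 held the CTCF consensus with up to 1 mismatch. In these the median log2 ratio of replicate 1 to replicate 2, with the median of all shared regions subtracted, was -0.994, and 93.1% were below 0. In the 32612 regions with 2 or more mismatches the median was 0.0387, and 47.3% were below 0. In the 3358 regions with a perfect match the median was -1.06. Shared promoter regions had a median of 0.177. The median signal of regions with the consensus was 1.42 in replicate 1 and 1.90 in replicate 2, and that of the others was 1.23 in replicate 1 and 0.798 in replicate 2. Among the regions named above, the one 41.7 kb upstream of Cdkn1a (log2 ratio -1.03) has 2 mismatches, and its match lies wholly inside footprints of both libraries. The comparison was chosen after the data were seen and has no test, and its cause was not tested.

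Of distal regions with a strict peak in only 1 library, Ccnd1 had 6, all in replicate 2, of which 2 had a permissive peak in the other library. Ccnd3 had 4 in each library. The number of such regions over all coding genes was not computed, so these counts cannot be called high or low.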
